A study of Mus musculus with 5 samples.

Results

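The B cell programme loci are 9 mouse genes, Ebf1, Pax5, Cd79a, Cd79b, Blk, Vpreb1, Rag1, Rag2 and Il7r, out of 21887 protein-coding genes in the gene table. They were chosen by their known roles in B cells and not by a cutoff on these peaks. The choice was made with earlier results of these data known. Each locus was taken as the annotated gene body with 20 kb added on each side. The authors' lists of open chromatin peaks held 17, 22, 27, 66 and 68 peaks in these windows, for Smc3-het replicates 1 and 2, then Smc3-wt replicates 1, 2 and 3, out of 26885, 36467, 65880, 102822 and 121224 peaks in all.

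Peaks came from ATAC-seq, in which a transposase cuts and tags accessible DNA, on lineage-depleted bone marrow labelled as HSPC (haematopoietic stem and progenitor cells). All 5 libraries came from Mx1-Cre+ mice that carried inv(16), an allele named for the inversion that fuses CBFB to MYH11 in human acute myeloid leukaemia, and that had been given PIPC, a double-stranded RNA that evokes interferon and thereby turns on Mx1-Cre, which acts in blood cells and in other tissues. The 2 Smc3-het libraries had the genotype Smc3 D/+ and are titled het, Smc3 being a subunit of the cohesin ring, and the 3 Smc3-wt libraries were Smc3 +/+. The labels give neither the age of the mice nor whether each library was a separate mouse, so the spread between libraries may be technical, and no library without inv(16) or without PIPC was analysed here.

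B cells arise from lymphoid progenitors that depend on the interleukin-7 receptor, whose alpha chain is encoded by Il7r. EBF1 and PAX5 are the transcription factors that specify the lineage and keep it committed. RAG1 and RAG2 together cut the antigen receptor genes for recombination, VPREB1 is part of the surrogate light chain of the pre-B cell receptor, CD79A and CD79B are the signalling chains of the B cell receptor, and BLK is a Src family kinase that acts downstream of it. RUNX1, whose partner CBFB is altered by inv(16), is known to act on early B cell genes.

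The members' promoters were set beside those of neighbouring genes that share their windows, because the neighbours carried most of the strong peaks. RefSeq promoter sequences of GRCm38.p6, the same build as mm10, were held for 7 of the 9 members, with 2 start sites for Ebf1 and none for Cd79b and Blk. The sequences below are the 250 bases upstream of a start, 5′ to 3′ on the gene's strand. The first 5 belong to members and the last pair to Iftap and Top3b, neighbours whose promoters had a peak in 5 of 5 lists. Capitals mark matches on either strand to TGNGGT (RUNX), CAGNTG (an E-box form), GGAAGT (ETS) or TGGGAA (Ikaros). Matches can overlap, as an E-box and a RUNX match do in Rag1.
Rag1, chr2:101649533-101649782, minus strand: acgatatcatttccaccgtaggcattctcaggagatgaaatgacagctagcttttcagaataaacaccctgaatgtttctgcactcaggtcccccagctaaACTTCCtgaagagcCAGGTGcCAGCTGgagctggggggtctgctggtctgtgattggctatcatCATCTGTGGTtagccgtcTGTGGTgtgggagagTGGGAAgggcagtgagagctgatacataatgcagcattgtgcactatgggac
Il7r, chr15:9529877-9530126, minus strand: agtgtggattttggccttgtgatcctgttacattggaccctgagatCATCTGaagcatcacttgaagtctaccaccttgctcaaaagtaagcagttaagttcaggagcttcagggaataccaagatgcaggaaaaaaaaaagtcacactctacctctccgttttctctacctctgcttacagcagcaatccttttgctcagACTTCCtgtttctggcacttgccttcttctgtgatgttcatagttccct
Cd79a, chr7:24897247-24897496, plus strand: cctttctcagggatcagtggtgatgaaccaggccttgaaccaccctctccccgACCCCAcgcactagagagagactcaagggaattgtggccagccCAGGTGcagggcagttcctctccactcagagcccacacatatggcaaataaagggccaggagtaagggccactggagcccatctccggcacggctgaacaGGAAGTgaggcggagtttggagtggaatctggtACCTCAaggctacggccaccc
Vpreb1, chr16:16869256-16869505, minus strand: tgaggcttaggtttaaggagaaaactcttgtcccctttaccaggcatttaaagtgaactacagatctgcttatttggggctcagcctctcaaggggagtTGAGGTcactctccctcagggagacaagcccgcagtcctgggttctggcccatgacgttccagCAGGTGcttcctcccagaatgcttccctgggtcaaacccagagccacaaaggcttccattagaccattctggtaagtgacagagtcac
Pax5, chr4:44710695-44710944, minus strand: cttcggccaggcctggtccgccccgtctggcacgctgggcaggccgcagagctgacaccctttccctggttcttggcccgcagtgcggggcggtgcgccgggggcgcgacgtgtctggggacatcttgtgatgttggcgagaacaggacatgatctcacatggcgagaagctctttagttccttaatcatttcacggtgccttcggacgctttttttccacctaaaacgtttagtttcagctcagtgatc
Iftap, chr2:101629032-101629281, minus strand: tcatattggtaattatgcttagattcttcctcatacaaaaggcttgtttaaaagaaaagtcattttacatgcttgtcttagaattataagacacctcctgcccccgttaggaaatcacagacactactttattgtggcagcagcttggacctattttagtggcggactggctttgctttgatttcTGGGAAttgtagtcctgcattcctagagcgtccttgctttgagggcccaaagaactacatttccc
Top3b, chr16:16870486-16870735, plus strand: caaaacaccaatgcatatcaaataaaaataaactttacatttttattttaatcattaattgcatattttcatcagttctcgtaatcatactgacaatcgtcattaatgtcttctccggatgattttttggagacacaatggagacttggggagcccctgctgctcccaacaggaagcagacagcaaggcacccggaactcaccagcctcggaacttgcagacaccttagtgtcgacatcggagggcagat

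Among the 8 member promoters, 4 held a RUNX match, 4 an E-box match, 4 an ETS match and 2 an Ikaros match, and 0 held the palindromic EBF motif, which was searched as well. Over all 32851 promoters the shares were 40.1% for RUNX, 44.8% for the E-box form, 19.7% for ETS, 21.6% for Ikaros and 0.779% for EBF. Rag1 held 2 RUNX, 3 E-box, 1 ETS and 1 Ikaros match, more than any other printed member, whereas the printed Pax5 and Top3b stretches held none. These matches describe letters and are not evidence of binding.

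The promoters also differed in CpG content, given as the observed over expected number of CG pairs. Il7r stood at 0.0844, Vpreb1 at 0.119, Rag1 at 0.190, Cd79a at 0.278 and Rag2 at 0.283, below the median of 0.374 over all promoters. Pax5 stood at 0.880 and the 2 Ebf1 starts at 0.989 and 0.853, all among the 8212 promoters with the highest ratios. Of those 8212 promoters, 71.2% overlapped a peak in all 5 equal-size lists (described next) and 10.5% overlapped none in any full list. The Pax5 promoter and both Ebf1 promoters were among those with no peak in any full list. Of the 8212 with the lowest ratios, Il7r and Vpreb1 among them, 85.7% had none in any full list. Among neighbours' promoters with a peak in 5 of 5 lists, Rps19 (0.796 to 0.923), Arhgef1 (0.722) and Top3b (0.645) were above the median. The printed Iftap promoter, at 0.283, overlapped a peak in 5 of 5 lists at the same CpG ratio as Rag2. Rag2 overlapped one only in the full list of Smc3-wt replicate 2. A second Iftap start, at 0.158, overlapped one only in the full list of Smc3-wt replicate 3.

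Because the longest list held 4.51 times as many peaks as the shortest, libraries were compared mainly after cutting each list to its top 26885 by −log10 p (equal-size lists), and the full lists are given beside them. For Smc3-het replicate 1, the shortest, both lists are the same. Strength is given as the authors' summit pileup, the number of fragments over the summit, divided by the background coverage of the same library. Background ranged from 2.92 to 3.59 fragments per base in Smc3-het and from 1.93 to 3.02 in Smc3-wt. The pileup, p and q of a peak are the authors' own values and are used as description. Smc3-het replicate 1 stood apart in that this background was the value of 20.1% of its peaks, against 43.7% to 59.7% in the other 4 libraries. The Smc3-het lists reached weaker peaks at equal size, with a lowest −log10 p of 3.47 and 5.66 against 9.84 to 14.4 in Smc3-wt.

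The labelled cell type was checked by peaks at gene ends, within 1 kb of either annotated end of a gene. Of 8 HSPC genes, 5 and 4 had a gene-end peak in Smc3-het against 6, 4 and 5 in Smc3-wt equal-size lists, with Flt3 and Meis1 in 5 of 5 and Mecom among those in none. Of 8 markers of B cells, 2 and 1 had one in Smc3-het against 2, 2 and 1 in Smc3-wt. Cd72 had one in 4 of 5 libraries and Cr2 in 3, and Ms4a1, Cd22, Fcer2a and Fcrla were among those with none in any. Of 8 T cell genes, 3 and 2 had one in Smc3-het against 2, 1 and 2 in Smc3-wt, with Cd247 in 5 of 5. Of 8 granulocyte genes, 0 and 0 had one in Smc3-het against 1, 0 and 0 in Smc3-wt. Of 8 erythroid genes, 4 and 5 had one in Smc3-het against 6, 4 and 7 in Smc3-wt, with Klf1 and Tfrc among those in 5 of 5. Among all protein-coding genes, 48.6% to 49.5% had one in the equal-size lists. No marker list was tested against that share. In bulk samples, fewer cells of a type and less open chromatin per cell cannot be told apart.

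**Figure D1:**
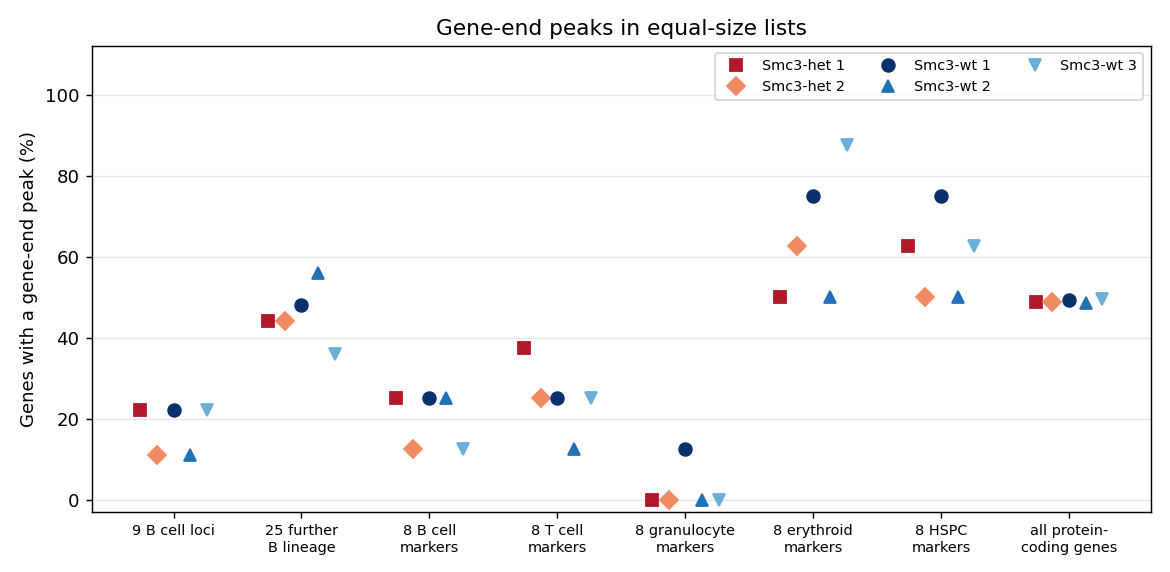
Percentage of genes with a gene-end peak (vertical axis) for each gene list (horizontal axis), 1 point per library in equal-size lists, Smc3-het in reds and Smc3-wt in blues. With gene ends taken as 1 kb, the 9 B cell loci sit at 11.1% or 22.2%, below the 48.6% to 49.5% of all protein-coding genes.

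Few members had a peak within 1 kb of a gene end. In equal-size lists 2 and 1 of the 9 members had a gene-end peak in Smc3-het replicates 1 and 2, against 2, 1 and 2 in Smc3-wt replicates 1, 2 and 3, or 11.1% to 22.2% of members. Over all protein-coding genes the share was 48.6% to 49.5%. These counts depend on the 1 kb limit. With gene ends taken as 2.5 kb, 5 and 3 members had one in Smc3-het against 5, 3 and 4 in Smc3-wt. The share over all genes at 2.5 kb is not given here. Ebf1 had a gene-end peak in 4 of 5 libraries, Rag1 in 2, Cd79b and Il7r in 1 each, and Pax5, Cd79a, Blk, Vpreb1 and Rag2 in none. No member had one in every library of 1 genotype and in no library of the other, a pattern that held for 0.402% of genes in the Smc3-het direction and 0.544% in the Smc3-wt direction.

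In full lists 2 and 2 members had a gene-end peak in Smc3-het, against 3, 5 and 5 in Smc3-wt, so the groups did not overlap, and the share over all genes did not overlap either, at 48.7% and 50.8% in Smc3-het against 57.0%, 60.9% and 63.3% in Smc3-wt. Ebf1 then had a peak at an end in 5 of 5 libraries, though in Smc3-wt replicate 2 at its far end and not at its start. Cd79b had one in each of the 3 Smc3-wt lists and in neither Smc3-het list, a pattern found at 2.68% of genes, while 0 members showed the reverse, found at 0.0366%. The Cd79b peaks were not 1 region, since they lay at the lower-coordinate end in Smc3-wt replicates 1 and 2 and at the higher-coordinate end in replicate 3. A Smc3-het replicate 2 peak overlapped that of Smc3-wt replicate 2 but lay beyond 1 kb of the gene. The Cd79a gene-end peaks of Smc3-wt replicates 2 and 3 counted here lay over a promoter of its neighbour Arhgef1. Blk and Vpreb1 had none in any full list.

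**Figure D2:**
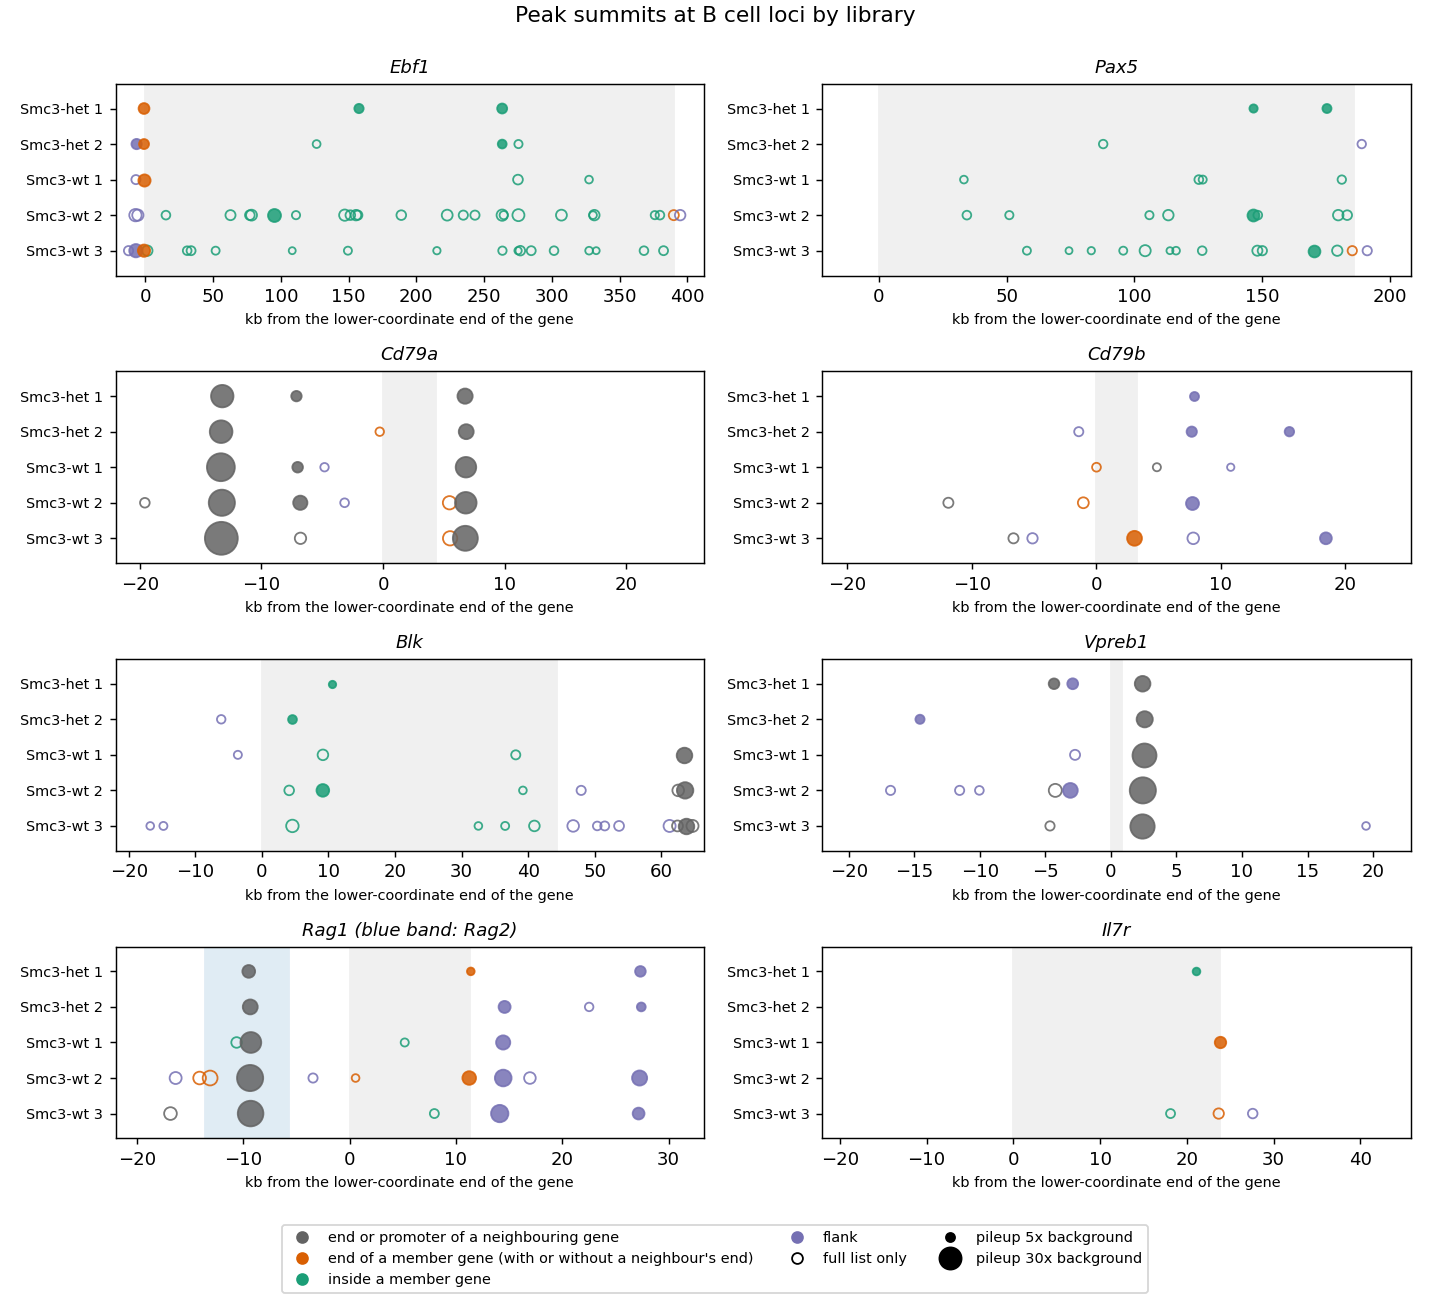
Peak summits along 8 windows (the Rag1 panel shows Rag2 as a blue band, without the part of the Rag2 window beyond that of Rag1), by distance in kb from the lower-coordinate end of the gene, 1 row per library. Grey bands are gene bodies, circle area is summit pileup over library background, filled circles are in the equal-size list and open circles in the full list alone. The largest circles are grey, at ends or promoters of neighbouring genes, and rows with many open circles are those of Ebf1 in Smc3-wt replicates 2 and 3 and of Pax5 and Blk in Smc3-wt replicate 3.

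The strongest peaks in the windows belonged to neighbouring genes. Peaks at an end or on a RefSeq promoter of a neighbour made up 6 of 17 and 4 of 14 peaks in the Smc3-het equal-size lists, and 6 of 9, 6 of 14 and 5 of 12 in Smc3-wt. Their median pileup over background was 12.1 and 14.9 in Smc3-het against 26.2, 35.3 and 38.4 in Smc3-wt. The remaining peaks, at the members themselves and in the flanks, had medians of 5.01 and 5.30 in Smc3-het against 9.11, 10.9 and 9.26 in Smc3-wt. Over all peaks of the equal-size lists, the medians were 6.96 and 7.87 in Smc3-het against 13.1, 14.5 and 17.2 in Smc3-wt. Ranked by −log10 p within a list, the best neighbour peak was in the top 1.81% to 8.67% in each library, and the best of the remaining peaks reached only the top 35.5% to 57.6%.

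Of 30 regions formed by overlapping peaks of the 5 equal-size lists, 4 were found in 5 of 5 libraries (13.3%, against 21.7% of all 56747 regions). All 4 lay at neighbours: Rps19, a ribosomal protein gene, and Arhgef1, beside Cd79a; Top3b, a topoisomerase gene, beside Vpreb1; and Iftap, whose end lies inside Rag2. Of the 23 regions away from the ends of neighbours, 0 were found in 5 of 5 libraries and 14 in a single library (60.9%). The share in a single library was 52.4% of all regions, but these keep regions at gene ends, so the sets are not alike.

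The region at the start of Rps19 (chr7:24883754-24885009) had a pileup over background of 30.9 and 31.5 in Smc3-het replicates 1 and 2, against 47.7, 42.1 and 66.5 in Smc3-wt replicates 1, 2 and 3. The Arhgef1 region (chr7:24903855-24904882) had 14.2 and 13.7 against 25.9, 28.6 and 38.4. The Top3b region (chr16:16870323-16871497) had 15.03 and 16.1 against 35.4, 42.1 and 36.4, and the Iftap region (chr2:101628497-101629327) had 10.02 and 13.7 against 26.6, 42.1 and 40.3. In each of the 4, both Smc3-het libraries lay below every Smc3-wt library, as in 88.9% of the 12321 regions found in all equal-size lists. The difference of mean log2 pileup over background, Smc3-het minus Smc3-wt, was −0.71 at Rps19, −1.13 at Arhgef1, −1.28 at Top3b and −1.60 at Iftap. The median over the 12321 regions was −1.16, with 5% below −1.88 and 5% above −0.42, so all 4 values lay inside that range.

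**Figure D3:**
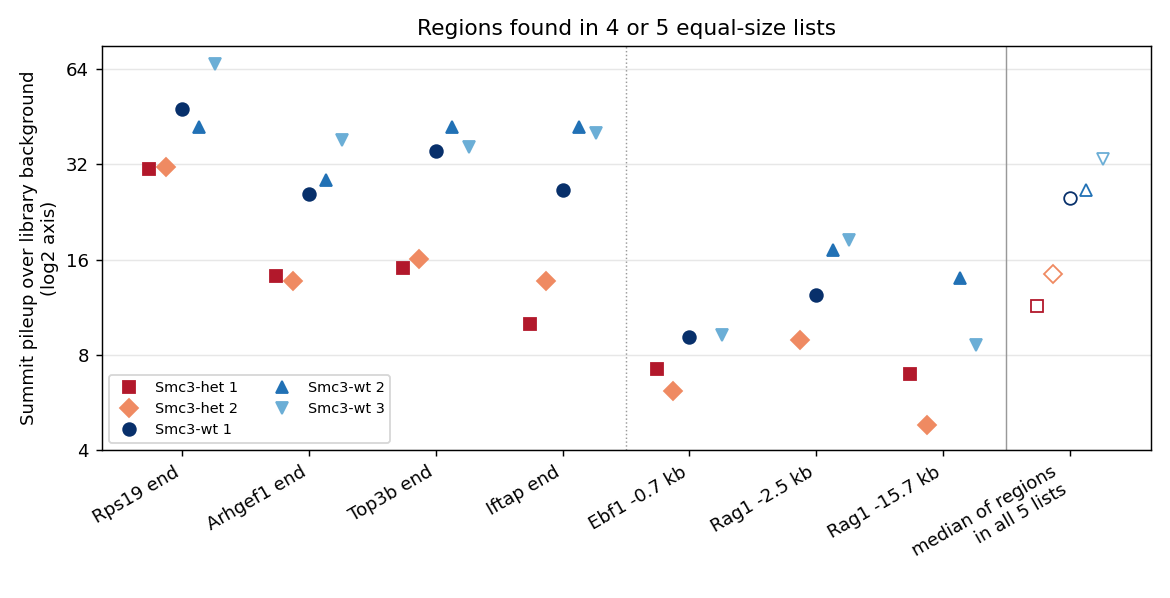
Summit pileup over library background (vertical, log2 axis) of the regions found in 4 or 5 equal-size lists, 1 point per library, with the library medians over all regions in 5 of 5 lists as open symbols at the right. The 4 neighbour regions, found in 5 of 5 lists, are left of the dotted line. The 3 regions of Ebf1 and Rag1 are labelled by distance of their near edge from the gene's start. Each was found in 4 lists, and they lie below the medians over regions in 5 of 5 lists.

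Ebf1 (chr11:44618100-45008096), the gene of the factor that starts the B cell programme, had 3 and 3 peaks in its window in the Smc3-het equal-size lists and 1, 1 and 2 in Smc3-wt. The Smc3-het libraries were higher without overlap, at 3 ± 0 (SD, n = 2) against 1.33 ± 0.577 (SD, n = 3). The two-sided exact permutation p was 0.2, the smallest that 2 against 3 libraries allow, and the Benjamini-Hochberg adjusted p over 17889 genes was 1. Of these genes, 5.34% were higher in Smc3-het without overlap and 4.62% lower, and Ebf1 was the 1 of 9 members outside the overlap. In full lists Ebf1 had 3 and 5 peaks against 4, 26 and 19, which turned the direction (exact permutation p 0.4). With lists of 13442 peaks Ebf1 had 2 and 0 against 0, 0 and 0, and the libraries overlapped. With a window of 0 kb they also overlapped, at 2 and 1 against 0, 1 and 0. They did not with a window of 50 kb, at 4 and 3 against 1, 1 and 2. Nor did they when peaks were ranked by fold enrichment, at 3 and 3 against 1, 2 and 2.

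The Ebf1 region shared by the most equal-size lists (chr11:44616628-44617410) lay just upstream of the gene, its near edge 0.69 kb from the start. Its pileup over background was 7.24 and 6.16 in Smc3-het, 9.11 in Smc3-wt replicate 1 and 9.26 in Smc3-wt replicate 3, and replicate 2 had no peak there even in its full list. Each value was below that library's median over the regions in 5 of 5 lists, at 0.634 and 0.429 times it in Smc3-het against 0.362 and 0.277 times it in Smc3-wt. A second region, 6.30 kb upstream (chr11:44610673-44611796), was in the equal-size lists of Smc3-het replicate 2, at 6.50, and Smc3-wt replicate 3, at 10.9, and in the full lists of 4 of 5 libraries.

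Within the gene, 1 region 263.1 kb from the start (chr11:44881246-44881644) was in both Smc3-het equal-size lists, at 6.12 and 4.79, and in no Smc3-wt one. It was the 1 of 30 member regions with that pattern (3.33%, against 1.08% of all regions), and it was present in the full lists of Smc3-wt replicates 2 and 3 at 7.79 and 4.30. The single Ebf1 peak of Smc3-wt replicate 2 at equal size lay elsewhere, 94.8 kb from the start, at 10.4 (chr11:44712925-44713418). The 26 and 19 peaks of Smc3-wt replicates 2 and 3 in full lists had a median pileup over background of 6.23 and 4.63, and 10 and 5 of them reached a −log10 q of 5. As a share of the list, Ebf1 peaks were 1.12 and 1.37 per 10000 peaks in Smc3-het against 0.607, 2.53 and 1.57 in Smc3-wt.

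Pax5 (chr4:44524748-44710694), the gene of the factor that holds B cell commitment, had 2 and 0 peaks in Smc3-het against 0, 1 and 1 in Smc3-wt equal-size lists, all inside the gene and none at an end. The region shared by 2 libraries, 39.1 kb into the gene from its start (chr4:44671091-44671614), stood at 4.18 in Smc3-het replicate 1 and 8.83 in Smc3-wt replicate 2. The other 2 peaks lay nearer the start, at 5.01 in Smc3-het replicate 1 (10.4 kb) and at 8.60 in Smc3-wt replicate 3 (15.8 kb). In full lists Pax5 had 2 and 2 peaks against 4, 8 and 14, and a gene-end peak in Smc3-wt replicate 3 alone. No Pax5 peak reached a −log10 q of 5 in Smc3-het or in Smc3-wt replicate 1, whereas 2 and 7 did in Smc3-wt replicates 2 and 3.

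Of the B cell receptor chains, Cd79a (chr7:24897497-24901858) had 3 and 2 peaks in Smc3-het against 3, 3 and 2 in Smc3-wt equal-size lists, and all of them were at Rps19 or Arhgef1. Without the neighbours' peaks the Cd79a count was 0 in 5 of 5 libraries. In full lists a weak peak lay at its start in Smc3-het replicate 2 alone, over the printed promoter, at 4.45. Smc3-wt replicates 2 and 3 had a full-list peak within 1 kb of its far end, at 10.9 and 12.6. The near edge of that region was 0.816 kb from the Cd79a end, and both peaks lay over an Arhgef1 promoter (chr7:24902736-24902985).

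Cd79b (chr11:106311341-106314562) had 1 and 2 peaks in Smc3-het against 0, 1 and 2 in Smc3-wt. Its own end was open in Smc3-wt replicate 3 alone at equal size, at 13.6 (chr11:106313711-106314655). The most shared region, inside the neighbouring sodium channel gene Scn4a (chr11:106318698-106319453), stood at 5.01 and 6.50 in Smc3-het against 10.4 in Smc3-wt replicate 2, and stood in the full list of Smc3-wt replicate 3 at 8.27.

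Blk (chr14:63372837-63417187) had 1 and 1 peaks in Smc3-het against 1, 2 and 1 in Smc3-wt equal-size lists. The 2 Smc3-het peaks, at 3.34 and 4.79, lay at different places inside the gene. The 3 Smc3-wt libraries shared a region at the end of Fam167a, the next gene (chr14:63436015-63436689), at 14.9, 16.6 and 14.9, with no peak in either Smc3-het list. This was the 1 of 30 member regions in all Smc3-wt and no Smc3-het equal-size lists (3.33%, against 1.91% of all regions). Without the neighbour, Blk had 1 and 1 against 0, 1 and 0 peaks.

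Vpreb1 (chr16:16868401-16869255), the surrogate light chain gene, had 3 and 2 peaks in Smc3-het against 1, 2 and 1 in Smc3-wt (exact permutation p 0.4). The peak present in 5 of 5 libraries was that of Top3b, 1.07 kb upstream of Vpreb1, and neither Vpreb1 end had a peak in any full list. A region 3.54 kb downstream of its start (chr16:16865158-16865719), between Vpreb1 and Igll1, which encodes the other surrogate light chain part, stood at 7.24 in Smc3-het replicate 1 and 13.5 in Smc3-wt replicate 2. The end of Igll1 itself was open in Smc3-het replicate 1 alone at equal size, at 6.96. In full lists that end also had a peak in Smc3-wt replicate 2, at 10.4, and in Smc3-wt replicate 3, at 5.29. Vpreb1 has a close copy, Vpreb2, and the counting of reads between them is uncertain, while the Vpreb2 window had 0 peaks in 5 of 5 equal-size lists.

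Rag1 (chr2:101638252-101649532) and Rag2 (chr2:101624712-101632528), the recombinase genes, lie side by side, and their windows share most peaks. Rag1 had 3 and 3 peaks in Smc3-het against 2, 4 and 3 in Smc3-wt, and Rag2 had 2 and 3 against 2, 3 and 2. The Rag2 start had a peak only in the full list of Smc3-wt replicate 2. The Rag1 start was open in Smc3-het replicate 1, at 3.62, and in Smc3-wt replicate 2, at 11.4 (chr2:101649177-101649810), and both peaks overlapped the promoter printed above with its paired RUNX matches.

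The region of highest pileup apart from Iftap lay 2.48 kb upstream of the Rag1 start (chr2:101652007-101653088). It stood at 8.90 in Smc3-het replicate 2 and at 12.4, 17.1 and 18.5 in Smc3-wt replicates 1, 2 and 3, and Smc3-het replicate 1 had no peak there. A further region, 15.7 kb upstream (chr2:101665222-101665865), stood at 6.96 and 4.79 in Smc3-het and at 14.0 and 8.60 in Smc3-wt replicates 2 and 3. Both stood below the library medians in every library that had them, the first at 0.493 to 0.647 times the median and the second at 0.257 to 0.610 times it.

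Il7r (chr15:9506159-9529941), the receptor gene of the earliest step, had the fewest peaks, 1 and 0 in Smc3-het against 1, 0 and 0 in Smc3-wt. The peak of Smc3-wt replicate 1, at 8.02, covered the start and the printed promoter (chr15:9529823-9530246). That of Smc3-het replicate 1, at 3.62, lay 2.47 kb inside the gene. In full lists Smc3-wt replicate 3 had 3 peaks, 1 of them at the start at 6.61, and Smc3-het replicate 2 and Smc3-wt replicate 2 still had 0.

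**Figure D4:**
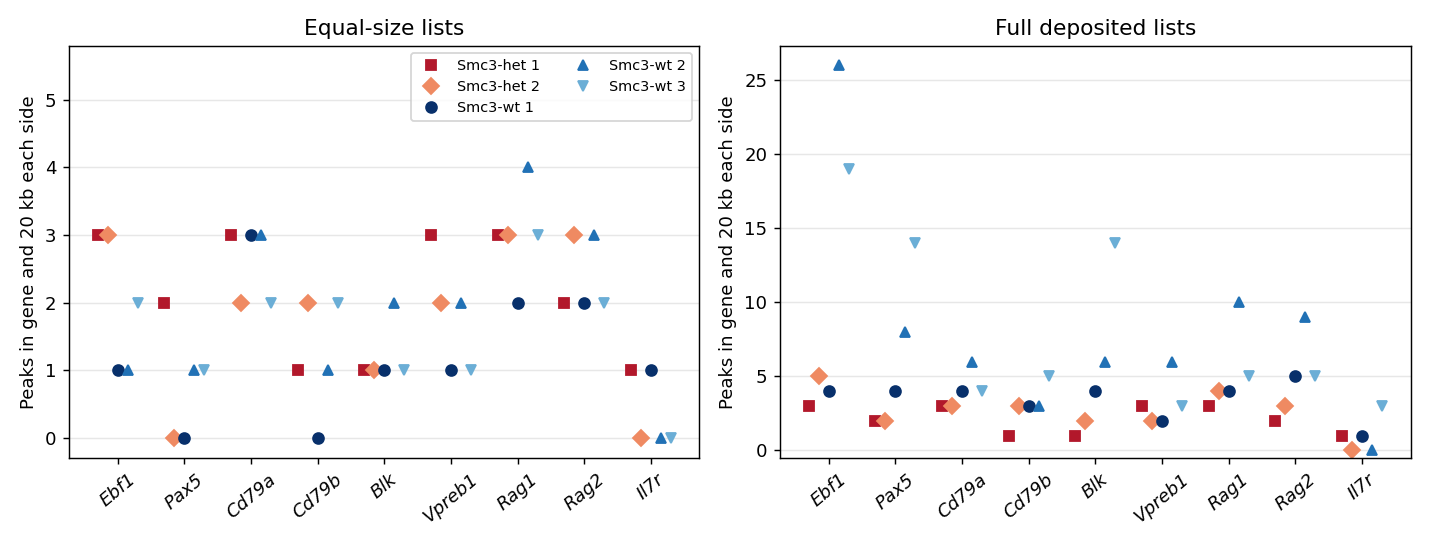
Number of peaks in each gene and 20 kb on each side (vertical axis) per member (horizontal axis), 1 point per library, in equal-size lists (left) and full lists (right, on a wider scale). At equal size the libraries overlap at 8 of 9 members, and in full lists the Smc3-wt replicates 2 and 3 reach 26 and 19 at Ebf1 and 8 and 14 at Pax5.

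Over the 9 windows together, which span 997.3 kb, each peak counted once, there were 17 and 14 peaks in Smc3-het against 9, 14 and 12 in Smc3-wt equal-size lists, or 15.5 ± 2.12 (SD, n = 2) against 11.7 ± 2.52 (SD, n = 3), and the libraries overlapped. Their median pileup over background was 6.68 and 6.33 for Smc3-het, below the 14.9, 13.8 and 14.2 of Smc3-wt, and the equal-size lists reach weaker peaks in Smc3-het genome-wide. In full lists these medians were 6.68 and 4.96 against 5.47, 6.75 and 5.29, and the libraries overlapped. Apart from Ebf1 and Vpreb1, the exact permutation p was 1 for each member. The mean peak count per window was 2.11 and 1.78 in Smc3-het against 1.22, 1.89 and 1.56 in Smc3-wt for members, beside 1.92 and 1.81 against 1.86, 1.79 and 1.86 for all genes. Member windows held 18.4 and 15.5 peaks per Mb in Smc3-het against 10.7, 16.5 and 13.6 in Smc3-wt, with shared peaks counted for each gene, below the 20.3 to 21.9 per Mb of all gene windows. In full lists the order turned in 2 libraries, since member windows held 18.4 and 23.3 per Mb in Smc3-het against 30.1, 71.7 and 69.8 in Smc3-wt, beside 21.9 and 25.2 against 41.4, 55.7 and 67.3 for all gene windows.

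In full lists the 9 windows held 17 and 22 peaks in Smc3-het against 27, 66 and 68 in Smc3-wt, without overlap. As a share of each list this was 6.32 and 6.03 per 10000 peaks in Smc3-het against 4.10, 6.42 and 5.61 in Smc3-wt, where the libraries overlapped. Pax5, Cd79a, Blk and Rag2 were lower in Smc3-het without overlap, 4 of 9 members, beside 44.7% of 21024 genes, and the exact permutation p of each was 0.2 (adjusted p over those genes 0.447). The members' share was near that of all genes, and 0 of 9 were higher in Smc3-het without overlap, beside 0.0713% of genes.

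Other genes of the B lineage had gene-end peaks more often than the 9 members by count, a difference not tested. Of 25 such genes, 11 and 11 had a gene-end peak in Smc3-het against 12, 14 and 9 in Smc3-wt equal-size lists. Beside these counts, the share over all protein-coding genes was 48.6% to 49.5%, and a difference from it was not tested. Irf4, Foxo1, Tcf3 and Bcl11a, which encode transcription factors, and the kinase genes Btk and Syk had one in 5 of 5 libraries. Cd22, Ms4a1, Vpreb2, Dntt, Spib, Rasgrp3 and Fcrla were among those with none in any. Cd22, which encodes an inhibitory lectin, had 1 and 1 peaks in its window in Smc3-het against 1, 1 and 0 in Smc3-wt. Ms4a1, which encodes CD20, had 1 and 0 against 1, 2 and 0, and Cd72, another inhibitory co-receptor gene, had 2 and 3 against 2, 2 and 1. Cr2, a complement receptor gene, was the 1 of 25 with a gene-end peak in all Smc3-wt and no Smc3-het list, beside 0.544% of all genes, in a window with 2 peaks in 5 of 5 libraries, and 0 of 25 showed the reverse. In full lists 11 and 12 of the 25 had one in Smc3-het against 14, 20 and 19 in Smc3-wt, without overlap, as was the share over all genes given above. Cr2, Rasgrp3 and Cd38 were then the 3 of 25 with one in all Smc3-wt and no Smc3-het list, beside 2.68% of all genes, and Ms4a1 alone had none in any.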

How the data were processed

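Per the submitters' processing notes, which name no version, the authors used Bowtie2, MACS2 and the mm10 build for these ATAC-seq libraries. Peak names show paired-end calling without mitochondrial reads, 1 list per library. The deposited lists give the summit pileup, a coverage signal in whole fragments, and fold enrichment, a ratio to local background, per the file headers. The deposited −log10 p and −log10 q columns had lost their headers and were identified by order and values. All are the authors' scores per peak.

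Only peaks on the autosomes and sex chromosomes were used. Background was solved from pileup and fold with a pseudocount of 1, as the commonest value in a list. Mapped reads per library were not used here, so the depth is unknown. Regions joined peaks that overlapped by at least 1 bp. Genes, in a table of GRCm38.p6, were extended by 20 kb, and gene ends by 1 kb. A peak was assigned to a neighbour if within 1 kb of its ends or on its RefSeq promoter. Counting was tested on simulated data. Per member, peak counts were compared with a two-sided exact permutation test over the 10 splits of 5 libraries into 2 Smc3-het and 3 Smc3-wt, adjusted over all genes with a peak. Pileup was described without a test. Some genes of the marker and B lineage lists are counted but not reported here by name. All 9 members were named, with regions that were shared by all libraries, separated the genotypes or were strongest in a locus, and the members and lists were chosen with earlier results of these data known. Same-numbered libraries did not pair: their deviations correlated at 0.0186 and 0.0449. Python 3.11.15, pandas 2.3.3 and NumPy 2.4.6 were used.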

Additional observations from a re-analysis of the deposited data

How the results depend on the processing

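All differences are Smc3-het minus Smc3-wt. The 9 windows together gave 3.83 peaks in equal-size lists, −34.2 in full lists, 1.33 with lists of 13442 peaks, −16.2 at a −log10 q threshold of 5 and −7.67 at one of 10. Members with a gene-end peak gave −0.167, then −2.33, 0.5, −2.67 and −1.33 under the same 4 settings, and 0 with gene ends taken as 2.5 kb. Median log2 pileup over background gave −1.14, then −0.011, −1.63, −0.18 and −0.088, and further −1.07 ranked by fold, −1.52 and −1.36 with windows of 0 and 50 kb, −1.43 with the median background and −0.92 without neighbours' ends, a setting chosen after seeing the data. Full lists and both q thresholds leave unequal list lengths. Leaving out 1 library in turn gave 2.33 to 5.33 peaks, −0.667 to 0.333 members and −1.18 to −1.10.

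Per member, directions turned under the following settings. Full lists gave −12.3 at Ebf1, −6.67 at Pax5, −1.67 at Cd79b, −1.17 at Vpreb1, −3.83 at Rag2 and −0.833 at Il7r. At the q threshold of 5 they were −3.17 at Ebf1, −3 at Pax5, −1.83 at Cd79b, −1.83 at Rag2 and −1 at Il7r, and at that of 10 they were −1.33, −0.667, −1.33, −1.17 and −0.333, with −0.333 at Vpreb1. Rag2 gave −0.167 with lists of 13442 peaks, Cd79b −0.333 and Blk 0.667 with windows of 0 kb, Cd79a 0.5 with 50 kb, and Blk 0.167 by fold and 0.667 without neighbours' ends. Leaving out 1 library gave −0.667 to 1.33 at Pax5, −0.667 to 0.333 at Cd79a, −0.333 to 0.667 at Rag2, −0.333 to 0.667 at Il7r and 1.5 to 2 at Ebf1. The sign turned without Smc3-het replicate 1 at Pax5 and Il7r and without Smc3-het replicate 2 at Cd79a and Rag2. The cause was not tested. With the replicate block, same-numbered libraries differed by 4 peaks over the windows, 0 members with a gene-end peak and −1.14 in log2 pileup, but the numbers do not pair the libraries. No setting can bring a 2 against 3 test below an exact p of 0.2. As the sequencing depth is unknown, the lack of a peak in a list does not show closed chromatin.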
